A study of Danio rerio with 17 samples.

Results

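The genes described here are 48 neuronal and synaptic genes of the zebrafish, a list of symbols covering neuronal RNA-binding proteins, the vesicle fusion machinery, synaptic vesicle proteins, the neuronal cytoskeleton, transmitter enzymes and transporters, receptors and adhesion proteins, and the neuronal sodium pump. They were picked by name, with earlier results of these data already known. Of the 48 symbols, 45 matched a row of the count files, which hold 15316 genes, and 44 were among the 13539 genes that passed the filter on low counts. The names stx1a, sv2a and sv2bb matched no row. The growth cone gene gap43 is listed at 0 counts in all 17 libraries, as are 541 of the 15316 genes in total, and 0 counts allow up to 3 counts, or 0.179 to 0.294 CPM (the usual count scaled to a common library total of counts in genes) across these depths, for counting error alone. No source used here names the counter or the annotation, so these 0 counts do not show that gap43 was unexpressed.

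Neurons release transmitter when an electrical signal lets calcium into the axon ending, where synaptotagmin senses it and the SNARE proteins (SNAP25, syntaxin and VAMP, held ready by complexin) fuse the vesicle with the membrane. Vesicles are filled by transporters that differ between excitatory glutamate neurons (slc17a6 and slc17a7) and inhibitory GABA and glycine neurons (slc32a1), and the receiving cell answers through AMPA and NMDA receptors and the kinase CaMKII. At the age sampled here the larval brain, spinal cord and retina hold working synapses while new neurons are still being added.

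Each library was a pool of 10 whole embryos of the AB line, frozen at 72 hours post fertilization (hpf). In the FFA group (6 pools) the yolk was injected at 24 hpf with a fluorescent BODIPY lipid at 1 mg/ml, carried in canola oil. The glucose group (6 pools) was kept in 3% glucose from 24 hpf. The control group had 5 pools. No source used here says whether control embryos received an injection, so the lipid cannot be told apart from the injection. Groups follow the sample titles, whereas in 11 libraries the treatment tag points elsewhere, nearly exchanging glucose and FFA. If the tags hold and not the titles, most values printed for glucose pools are those of FFA pools, and the reverse. Nothing in the labels ties the pools to separate clutches, and p-values therefore reflect only how these pools vary. Counts in genes ranged from 10208640 to 16745675 per library. In addition, 29.9% to 36.59% of a library's counts fell on a line for reads outside the annotated genes, called the no-feature share below. It was 33.4 ± 1.88% in FFA (SD, n = 6), 32.1 ± 2.31% in glucose (n = 6) and 33.5 ± 2.70% in control (n = 5). The labels do not say what these reads are.

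The whole-embryo label fitted the data, since the summed levels of the skeletal muscle, epidermis and red blood cell lists stood well above 0 in every library (at least 56744, 22099 and 1629 CPM). The 44 tested neuronal genes are by definition those that passed the filter on low counts, and each had a mean over the 17 libraries of at least 2.97 CPM. For these levels each library total was first adjusted by a scaling factor (0.957 to 1.04). CPM is not corrected for gene length, so levels are compared between libraries and not between genes. In bulk samples, fewer neurons and less RNA per neuron cannot be told apart, and this holds for every result below.

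The levels of these genes differed far more between pools of 1 group than between the groups. The summed level of the 44 genes was 6325 ± 1186 CPM in FFA, 5647 ± 1653 CPM in glucose and 6723 ± 2605 CPM in control (SD). It ran with the no-feature share. In FFA the sum was 5011, 6295, 4914, 6523, 7579 and 7628 CPM in replicates 6, 2, 1, 3, 5 and 4, whose no-feature shares were 31.1, 32.2, 32.3, 33.5, 35.3 and 35.8%. In glucose it was 4065, 4040, 5371, 5647, 6261 and 8497 CPM in replicates 3, 2, 5, 6, 1 and 4, with shares of 30.2, 30.7, 30.8, 31.3, 33.4 and 36.2%. In control it was 3130, 5433, 6674, 8732 and 9644 CPM in replicates 4, 3, 6, 2 and 1, with shares of 29.9, 32.1, 33.5, 35.6 and 36.6%. The 3 groups overlapped completely, and control held both the lowest and the highest pool. Within each group the pool with the largest sum was the one with the largest share. In control the highest sum was 3.08 times the lowest, in glucose 2.10 times and in FFA 1.55 times.

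**Figure D1:**
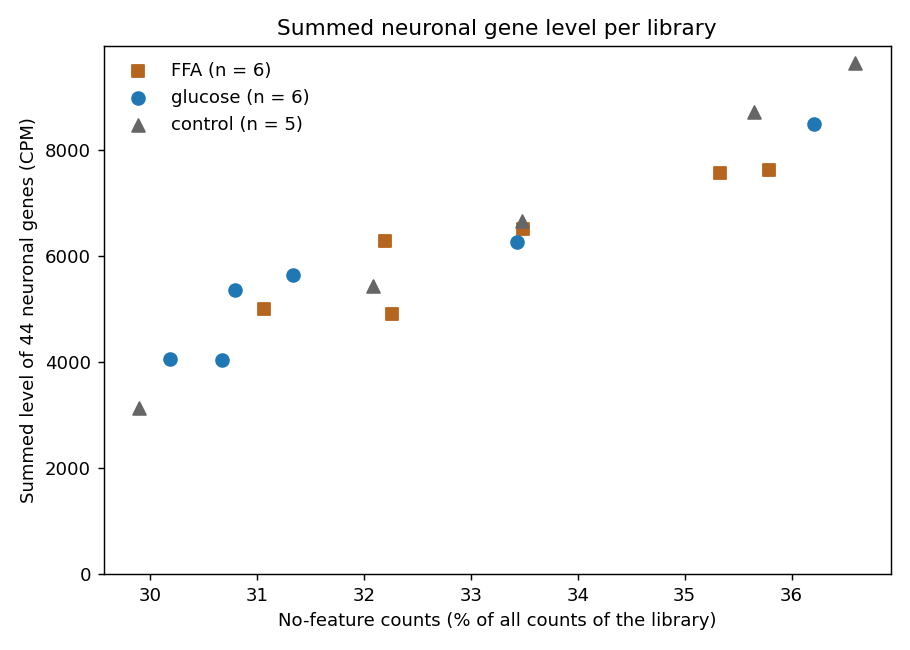
The y axis gives the summed level of the 44 tested neuronal genes in CPM and the x axis the no-feature share in percent of all counts, with 1 point per library (squares FFA, circles glucose, triangles control). Sums run from 3130 to 9644 CPM, both in control pools, and the pool with the highest share has the highest sum in every group.

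Each gene was therefore described by its slope, the change of its level on the log2 scale for each percentage point of the no-feature share among pools of the same group, fitted across all 13539 genes with edgeR's quasi-likelihood test. All 44 neuronal genes rose with the share at a Benjamini-Hochberg adjusted p under 0.05, and none fell. The background was high: 57.8% of all tested genes passed, with 26.8% rising with the share and 30.9% falling. The slopes of the 44 genes had a median of 0.20 and lay between 0.05 and 0.47, against a median of -0.01 over all tested genes. Of the 44 genes 40 had a slope of at least 0.1, as had 12.9% of all tested genes, and 23 had a slope of at least 0.2, as had 4.54% of all tested genes. The genes moved together: the log2 level of each, taken as its deviation from the group mean, correlated with the mean of the other 43 at a median r of 0.97 over the 17 libraries, with 0.72 for tuba1a as the lowest. These r values describe genes that share the same libraries.

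The slope was positive for all 44 genes within each group taken alone, where 46.6% (FFA), 44.9% (glucose) and 45.9% (control) of all tested genes had a positive slope. Its median over the 44 genes was 0.14 in FFA, 0.19 in glucose and 0.25 in control. For 40 of the 44 genes the order was control above glucose above FFA. These genes share their libraries and moved together, so they are not 40 separate observations of the order. An edgeR test asked for any difference of the slope between the 3 groups, in whatever order, so the order itself was not tested. It passed for 0 of the 44 genes (smallest adjusted p = 0.191, 11 genes at an unadjusted p under 0.05). Of all 13539 genes it called 6 (0.0443%). That test was chosen after seeing the data. The shares of all tested genes with this order, or at that unadjusted p, were not computed.

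**Figure D2:**
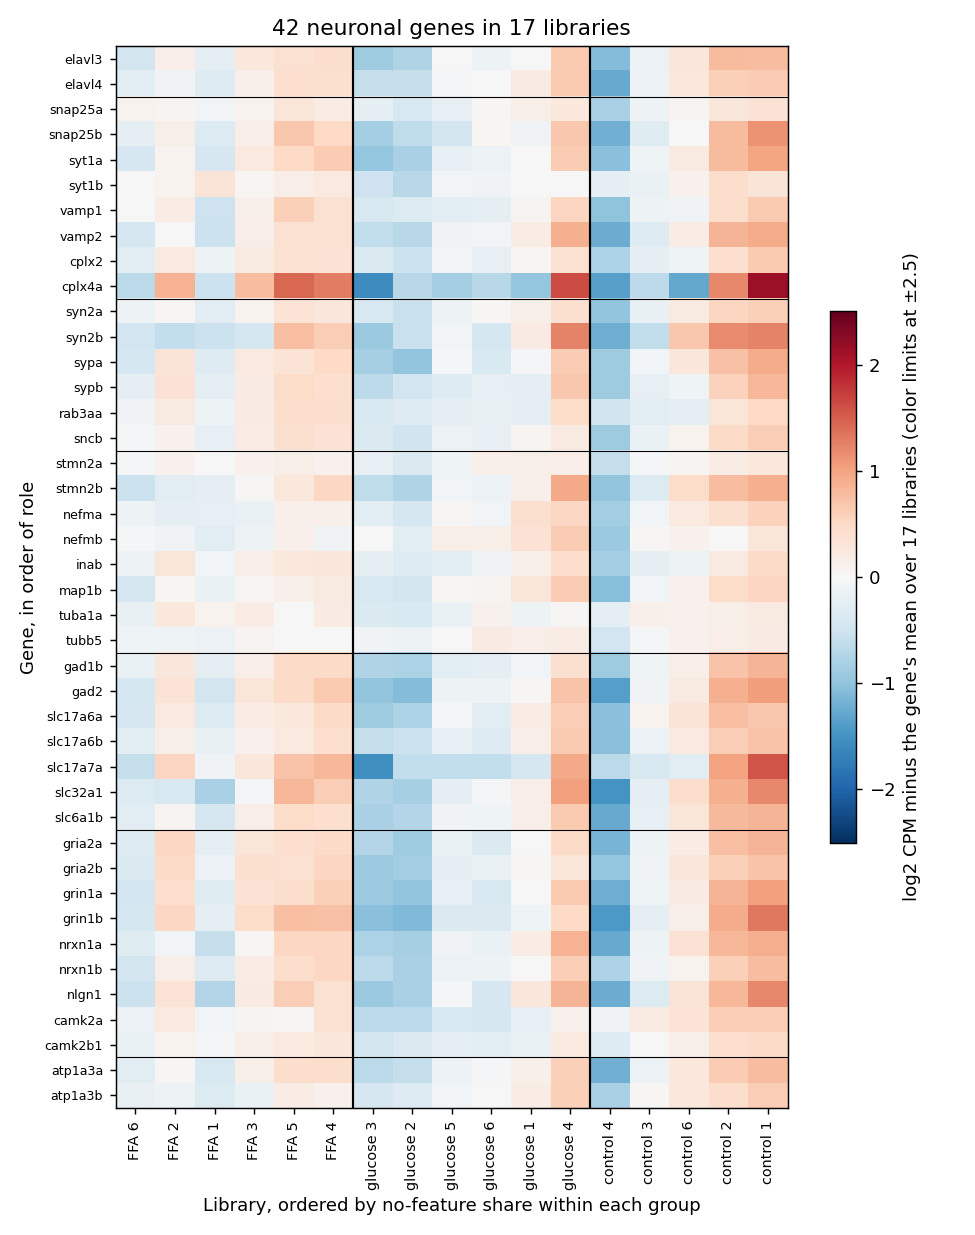
Rows are 42 of the 44 tested neuronal genes in order of role and columns the 17 libraries, ordered by rising no-feature share within FFA, glucose and control. Color is the log2 CPM minus the gene's mean over all libraries, and the right end of each group is red and the left end blue in most rows, with cplx4a, syn2b and slc32a1 among the strongest and tuba1a and tubb5 among the palest.

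Pan-neuronal RNA-binding proteins of the Hu family, which mark neurons from the time they leave the cell cycle, had slopes near the middle of the 44 genes. The level of elavl3 was 72.4, 112, 84.1, 120.4, 130.1 and 136 CPM in FFA, ordered by rising share as above, 54.1, 59.2, 99.0, 91.9, 99.9 and 157 CPM in glucose, and 47.2, 90.3, 123, 174 and 170.3 CPM in control. The highest pool stood 1.87 times above the lowest in FFA, 2.90 times in glucose and 3.68 times in control, and the groups overlapped. In FFA and glucose the highest pool was the one with the highest share, and in control it was replicate 2, the next to highest. The slope of elavl3 was 0.22 ± 0.0265 (SE, adjusted p = 2.27e-06 with edgeR). That of elavl4 was 0.21 ± 0.0234 (adjusted p = 1.02e-06).

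The vesicle fusion machinery held both steep and shallow genes, with slopes from 0.07 to 0.47 among its 10 tested members. The steepest of all 44 genes with all 17 libraries was cplx4a, a complexin of the type found at the ribbon synapses of the retina. Its level was 16.0, 46.9, 17.5, 43.5, 69.3 and 61.8 CPM in FFA, 8.57, 15.9, 14.1, 15.8, 13 and 78.7 CPM in glucose, and 9.93, 16.2, 10.5, 59.1 and 113 CPM in control, again ordered by rising share. Its levels did not run evenly with the share: FFA replicates 2 and 3 held 46.9 and 43.5 CPM at shares of 32.2 and 33.5%, where glucose replicate 1 held 13 CPM at 33.4% and control replicate 6 held 10.5 CPM at 33.5%. Its slope was 0.47 ± 0.0571 (adjusted p = 2.78e-06), a 5.05-fold change over 5 percentage points. Without control replicates 1 and 2 and glucose replicate 4, the 3 pools with the highest summed neuronal level, its slope was 0.26, and syn2b and slc32a1 were then steeper. Leaving out these pools selects on the neuronal genes' own levels. Values of that fit, here and below, therefore cannot check a slope or a call.

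The SNARE genes snap25b and vamp2 and the calcium sensor syt1a lay close to each other at 0.26, 0.25 and 0.25. The shallowest of the fusion genes was syt1b, the other copy of syt1a, with a mean of 2.97 CPM and a slope of 0.07 ± 0.0236 (adjusted p = 0.0124). Its call ended with a replicate block (adjusted p = 0.0580). It also ended without control replicates 1 and 2 and glucose replicate 4 (adjusted p = 0.228).

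Among the 6 tested synaptic vesicle proteins, slopes ran from 0.13 to 0.34. The synapsin gene syn2b, whose product tethers vesicles in reserve, was steepest, at 0.34 ± 0.0285 (adjusted p = 1.33e-07). It stood at 13.9 to 35.8 CPM in FFA, 11.1 to 49.7 CPM in glucose and 9.07 to 50.2 CPM in control. The Rab GTPase gene rab3aa, which guides vesicles to the membrane, was shallowest, at 0.13 ± 0.0138 (adjusted p = 6.71e-07), with 36.2 to 53.9 CPM in FFA, 30.6 to 54.2 CPM in glucose and 28.2 to 56.2 CPM in control.

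Axon growth and cytoskeleton genes had the lowest slopes of the roles, with a median of 0.12 over 8 tested members. The tubulin gene tuba1a, which neurons use as axons grow and regrow, had the shallowest slope of all 44 genes, 0.05 ± 0.0160 (adjusted p = 0.0214). Its level was 181 to 249 CPM in FFA, 159.8 to 225 CPM in glucose and 177 to 242 CPM in control, and no group spanned more than 1.41-fold. The tubulin gene tubb5 followed at 0.06 and the stathmin gene stmn2a, which regulates microtubules in growing axons, at 0.08. Tubulin genes have close copies, and how reads that match several genes were treated is not given, so single tubulin genes are uncertain. The call for tuba1a ended without control replicate 4 (adjusted p = 0.108) and without glucose replicate 4 (adjusted p = 0.0530). It also ended without control replicates 1 and 2 and glucose replicate 4 together (adjusted p = 0.169). The steepest gene of this role was stmn2b, at 0.25 ± 0.0197 (adjusted p = 8.25e-08).

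Genes of transmitter synthesis and transport had slopes from 0.20 to 0.32, with no shallow member among 7. The steepest were the vesicular GABA and glycine transporter slc32a1 at 0.32 ± 0.0285 (adjusted p = 1.91e-07) and the vesicular glutamate transporter slc17a7a at 0.31 ± 0.0331 (adjusted p = 7.72e-07). Without the 3 pools just named, the slc17a7a slope was 0.20. The lowest slc32a1 slope under any alternative was 0.29. The level of slc32a1 was 48.3 to 151 CPM in FFA, 48.2 to 174 CPM in glucose and 30.3 to 197 CPM in control, and in control the highest pool held 6.5 times the lowest. The GABA-producing enzyme genes gad2 and gad1b had slopes of 0.27 and 0.20. The glutamate transporters slc17a6a and slc17a6b, typical of brainstem and midbrain, had slopes of 0.21 and 0.20. The GABA uptake transporter slc6a1b had a slope of 0.24.

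Receptors, adhesion proteins and the postsynaptic kinase had a median slope of 0.21 over 9 genes. The NMDA receptor subunit gene grin1b was steepest, at 0.29 ± 0.0328 (adjusted p = 1.24e-06), and reached 449 CPM in control replicate 1 against 66.5 CPM in control replicate 4. The synaptic adhesion genes nlgn1 and nrxn1a, whose products bind each other across the cleft, had slopes of 0.28 and 0.26. The AMPA receptor subunit genes gria2a and gria2b had slopes of 0.21 and 0.19. The CaMKII genes camk2a and camk2b1 were the shallowest of this role, at 0.10 each. The sodium pump genes atp1a3a and atp1a3b, which restore the ion gradients that firing uses up, had slopes of 0.22 ± 0.0228 (adjusted p = 6.54e-07) and 0.15 ± 0.0175 (adjusted p = 1.72e-06).

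**Figure D3:**
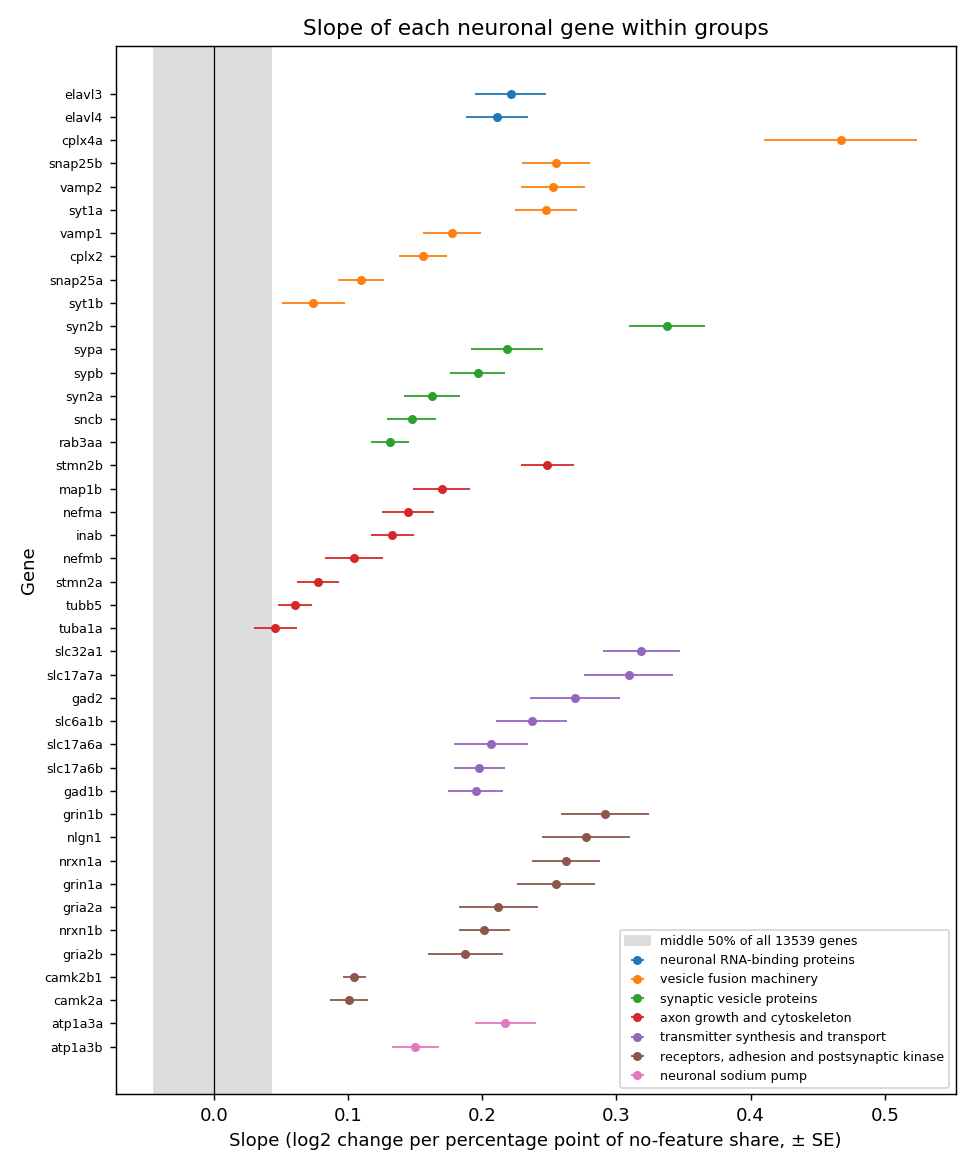
The x axis is the slope in log2 units per percentage point of no-feature share, with its SE, and the y axis lists 42 of the 44 genes by role. The gray band is the middle 50% of all 13539 tested genes, and every plotted gene lies to the right of it, from 0.05 (tuba1a) to 0.47 (cplx4a).

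Zebrafish carry a pair of copies of many genes from a genome duplication, and 12 such pairs are among the 44 genes. The slope of the log2 ratio of the copies was tested for each pair by a permutation test, two-sided, with 100000 permutations of the no-feature share within groups. The test was chosen after seeing the data, and p-values were adjusted over the 12 pairs. The copies differed in 8 of the 11 pairs reported here. Pairs of genes that are not copies were not tested, so this count cannot say whether copies differ more often than other pairs. Between stmn2a and stmn2b the difference of slopes, first copy minus second, was -0.17 (permutation p = 1e-05, the smallest these permutations give, adjusted p = 0.00012), and it was also -0.17 in FFA, in glucose and in control taken alone. Between syt1a and syt1b it was 0.17 (adjusted p = 0.00012, permutation test). Between snap25a and snap25b it was -0.15 (adjusted p = 0.00016, permutation test), and between syn2a and syn2b -0.18 (adjusted p = 0.00106). In the stathmin, SNAP25 and synapsin pairs the copy named b was thus the steeper one, and in synaptotagmin 1 the copy named a.

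Smaller differences passed for atp1a3a above atp1a3b (0.07, adjusted p = 0.00039, permutation test), nrxn1a above nrxn1b (0.06, adjusted p = 0.0125), nefma above nefmb (0.04, adjusted p = 0.0185) and grin1a below grin1b (-0.03, adjusted p = 0.0339). The sign was the same in all 3 groups for the first 3 of these, and in 2 of 3 groups for grin1a and grin1b. The pairs sypa and sypb, slc17a6a and slc17a6b, and gria2a and gria2b did not pass (adjusted p between 0.125 and 0.424, permutation test).

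Genes of other lists also moved along the same share, where 26.8% of all tested genes rose and 30.9% fell. No cells were counted. All 46 tested photoreceptor genes rose with it, with a median slope of 0.33, and their summed level ran from 3315 to 7974 CPM in FFA, 2225 to 10748 CPM in glucose and 2461 to 12028 CPM in control. All 28 epidermis genes fell (median -0.08), as did 34 of 36 skeletal muscle genes (median -0.07) and 80 of 81 cytosolic ribosomal protein genes (median -0.08). Of 22 red blood cell genes 13 fell and 1 rose, and of 16 heart genes 9 fell. The progenitor and glia lists were mixed: 26 of 38 progenitor and early neurogenesis genes rose and 4 fell (median 0.08), and 12 of 25 glia and myelin genes rose and 5 fell (median 0.04). The 4 progenitor genes that fell were pcna, stmn1a, mcm5 and hmgb2a. The part of the other cell types, and of the no-feature reads themselves, in the slopes of the neuronal genes was not tested. With log2 depth as a further covariate, all 44 neuronal genes still rose, with a median slope of 0.21.

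A second list of synaptic and neuronal genes, none of them among the 48, was read the same way. It too was chosen with earlier results of these data known. Of its 156 symbols 110 were tested. With the share, 95 rose and 4 fell, with a median slope of 0.18. The smallest p-values belonged to the adhesion gene ncam1a (0.18 ± 0.0136, adjusted p = 4.79e-08), the neurexin gene nrxn2b (0.40 ± 0.0293, adjusted p = 4.79e-08) and the neuronal splicing factor gene nova2 (0.26 ± 0.0211, adjusted p = 1.05e-07). The 4 that fell were nsfb (-0.05), sypl2a (-0.05), thy1 (-0.14) and the glutamate transporter slc17a8 (-0.06), which hair cells of the ear and lateral line use in zebrafish.

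The first comparison set glucose pools against control pools. Of the 44 neuronal genes 1 fell and 0 rose with edgeR, while 10.9% of all tested genes were called, 5.87% higher and 5.02% lower. The libraries of both groups overlapped in all 44 genes, where 6.9% of all tested genes had groups that did not overlap. At an unadjusted p under 0.05 there were 2, camk2a and camk2b1. The median log2 fold change of the 44 genes was -0.33, against -0.003 over all tested genes. Of the 44 genes 41 were below 0, as were 6854 of all 13539 tested genes. The 44 genes share their libraries and moved together, so these are not 41 separate observations. The median of the 44 genes moved with single pools, to -0.11 without control replicate 1, -0.19 without control replicate 2 and -0.54 without glucose replicate 4. With the no-feature share as a covariate it was 0.06.

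The gene that fell was camk2a, the alpha chain of CaMKII, a kinase that strengthens excitatory synapses. Its level was 15.6, 15.4, 18.9, 18.3, 21.3 and 26.5 CPM in glucose replicates 3, 2, 5, 6, 1 and 4, and 23.1, 28.7, 31.1, 37.5 and 37.4 CPM in control replicates 4, 3, 6, 2 and 1. The groups overlapped in 1 glucose pool, replicate 4, which had the highest no-feature share of its group. At a like share it lay below control: glucose replicate 4 held 26.5 CPM at 36.2%, where control replicate 1 held 37.4 CPM at 36.6%, and glucose replicate 3 held 15.6 CPM at 30.2%, where control replicate 4 held 23.1 CPM at 29.9%. The means were 19.3 ± 4.13 CPM in glucose (SD, n = 6) and 31.5 ± 6.12 CPM in control (n = 5), so that the log2 fold change came to -0.70 ± 0.148 (SE, edgeR adjusted p = 0.00582). With the no-feature share as a covariate it was -0.56 ± 0.0773 (adjusted p = 7.40e-05). The call stood without any 1 of the 11 pools (adjusted p up to 0.0189), and it ended with groups taken from the treatment tag (adjusted p = 0.954). Under the tags the glucose group held FFA replicates 2 to 6, and glucose replicate 1 counted as control. That fit compared other pools, so it cannot check this call. Those groups called 0.783% of all tested genes in this comparison.

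With the covariate, 3 of the 44 neuronal genes were called, 1 higher and 2 lower, while 18.6% of all tested genes were called, 9.21% higher and 9.42% lower. The second that fell was camk2b1, a beta chain of CaMKII, with 148 to 239 CPM in glucose and 161 to 280.3 CPM in control, and its log2 fold change came to -0.19 ± 0.0448 (adjusted p = 0.00605). Without the covariate it was -0.35 ± 0.139 (adjusted p = 0.118). The gene that rose was nefmb, a neurofilament gene, whose level was 66.5, 55.1, 74.0, 74.8, 85.8 and 104 CPM in glucose and 35.3, 68.1, 72.4, 67.4 and 82.4 CPM in control, both ordered by rising share. The groups overlapped. Its log2 fold change was 0.40 ± 0.116 (adjusted p = 0.0243), and the call ended without control replicate 4 (0.24, adjusted p = 0.132) or glucose replicate 4 (0.38, adjusted p = 0.0745). It also ended without control replicates 1 and 2 and glucose replicate 4 together (0.35, adjusted p = 0.133).

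For the other neuronal genes this comparison was imprecise. The SE of the 44 log2 fold changes had a median of 0.28, and 0.12 with the covariate. The GABA enzyme gene gad1b, at 112 ± 35.8 CPM in glucose and 158 ± 67.6 CPM in control, had a log2 fold change of -0.50 with a 95% interval from -1.07 to 0.07. The glutamate transporter slc17a7a, at 11.3 ± 7.61 CPM in glucose and 19.7 ± 13.9 CPM in control, had -0.78 with an interval from -1.71 to 0.15. Both intervals hold a log2 fold change of -1 as well as 0.

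**Figure D4:**
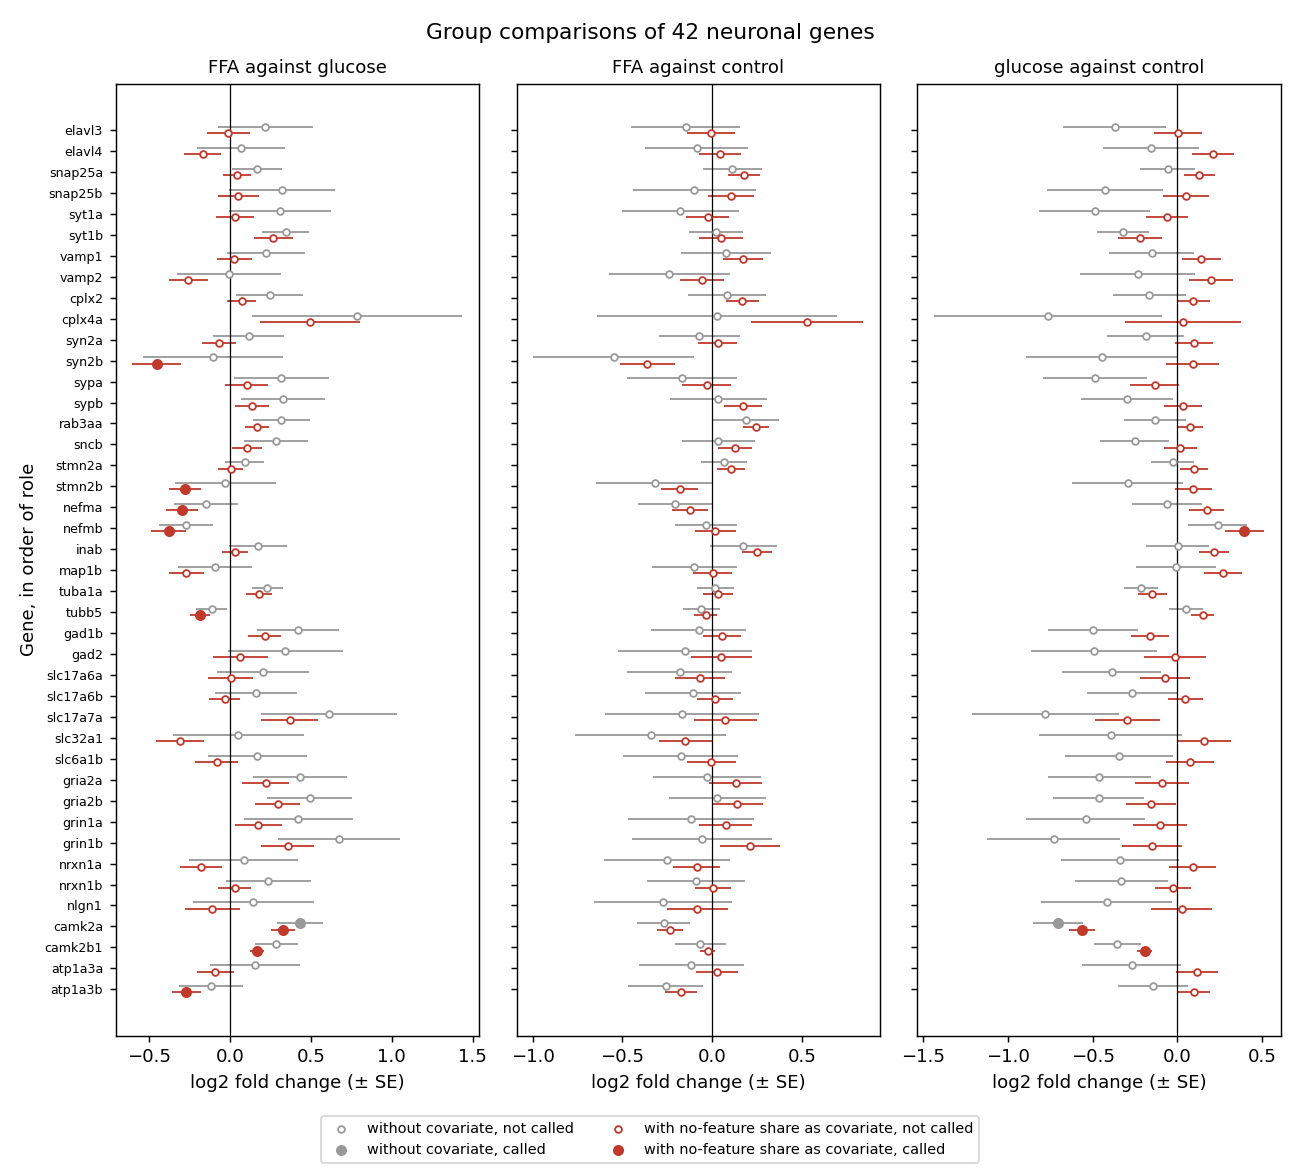
The x axes give log2 fold changes with their SE for 42 of the 44 genes (rows, in order of role) in the comparisons FFA against glucose, FFA against control and glucose against control. Gray marks the fit without and red the fit with the no-feature share as covariate, and filled points passed an adjusted p of 0.05. The red bars are shorter (median SE 0.12 against 0.28 in glucose against control), and camk2a is filled in both fits for glucose against control and FFA against glucose.

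The second comparison set FFA pools against control pools. Of the 44 neuronal genes 0 were called with edgeR, 0 had an unadjusted p under 0.05, and DESeq2 and limma-voom also called 0, where edgeR called 1.82% of all tested genes, 1.1% higher and 0.716% lower. Again the groups overlapped in all 44 genes, against 2.3% of all tested genes with no overlap. The median log2 fold change was -0.10, against -0.009 over all tested genes, and its sign turned with single pools and tools. It was 0.07 without control replicate 1, 0.02 without control replicate 2, -0.30 without control replicate 4 and 0.01 with limma-voom. With the covariate 0 were again called with edgeR, 4 had an unadjusted p under 0.05, DESeq2 called 1 and limma-voom 0, where edgeR called 4.79% of all tested genes, 2.67% higher and 2.12% lower. The smallest adjusted p belonged to rab3aa, at 45.6 ± 7.60 CPM in FFA and 39.9 ± 11.9 CPM in control, and its log2 difference came to 0.24 ± 0.0735 (adjusted p = 0.0669). The CaMKII gene camk2a held 22.1, 28.9, 23.4, 25.5, 25.1 and 31.8 CPM in FFA by rising share. Of these 6 pools 5 lay within the range of the control pools and replicate 6 just under it. With the covariate its log2 fold change was -0.23 ± 0.0732 (adjusted p = 0.0796).

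The third comparison set FFA pools against glucose pools. Of the 44 neuronal genes 1 rose, again camk2a, at 26.2 ± 3.60 CPM in FFA and 19.3 ± 4.13 CPM in glucose (SD, n = 6 each), and its log2 fold change came to 0.43 ± 0.143 (edgeR adjusted p = 0.0456). Of all tested genes 17% were called, 7.98% higher and 9% lower, and 8.69% had groups that did not overlap. That call ended without any 1 of 9 pools (adjusted p up to 0.113), namely glucose replicates 1, 2, 3, 5 and 6 and FFA replicates 2, 3, 4 and 5. With the covariate, 8 of the 44 neuronal genes were called, 2 higher and 6 lower, while 29.4% of all tested genes were called, 14.6% higher and 14.8% lower. The CaMKII genes were the higher ones, camk2a by 0.33 ± 0.0739 (adjusted p = 0.00299) and camk2b1 by 0.17 ± 0.0423 (adjusted p = 0.00636), and both calls stood without any 1 of the 12 pools.

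The count of 6 lower among 44 lay near the share of all tested genes called lower (14.8%). Of the 6 that fell, 4 were axon growth and cytoskeleton genes. That role was mixed, since 3 of its 8 tested members had a log2 fold change above 0, up to 0.18. The neurofilament genes nefmb and nefma had log2 fold changes of -0.38 ± 0.109 (adjusted p = 0.0146) and -0.30 ± 0.0978 (adjusted p = 0.0297), stmn2b had -0.28 ± 0.101 (adjusted p = 0.0485) and tubb5 -0.18 ± 0.0635 (adjusted p = 0.0368). The level of nefmb was 56.3 to 73.5 CPM in FFA and 55.1 to 104 CPM in glucose, and the groups overlapped in it, as in all 44 genes. The remaining pair was syn2b (-0.45 ± 0.151, adjusted p = 0.0322) and atp1a3b (-0.27 ± 0.0883, adjusted p = 0.0292). Only the nefmb call stood without any 1 of the 12 pools (adjusted p up to 0.0478). The others ended without 5 pools for nefma, 6 for syn2b, 6 for atp1a3b, 7 for tubb5 and 10 for stmn2b.

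**Figure D5:**
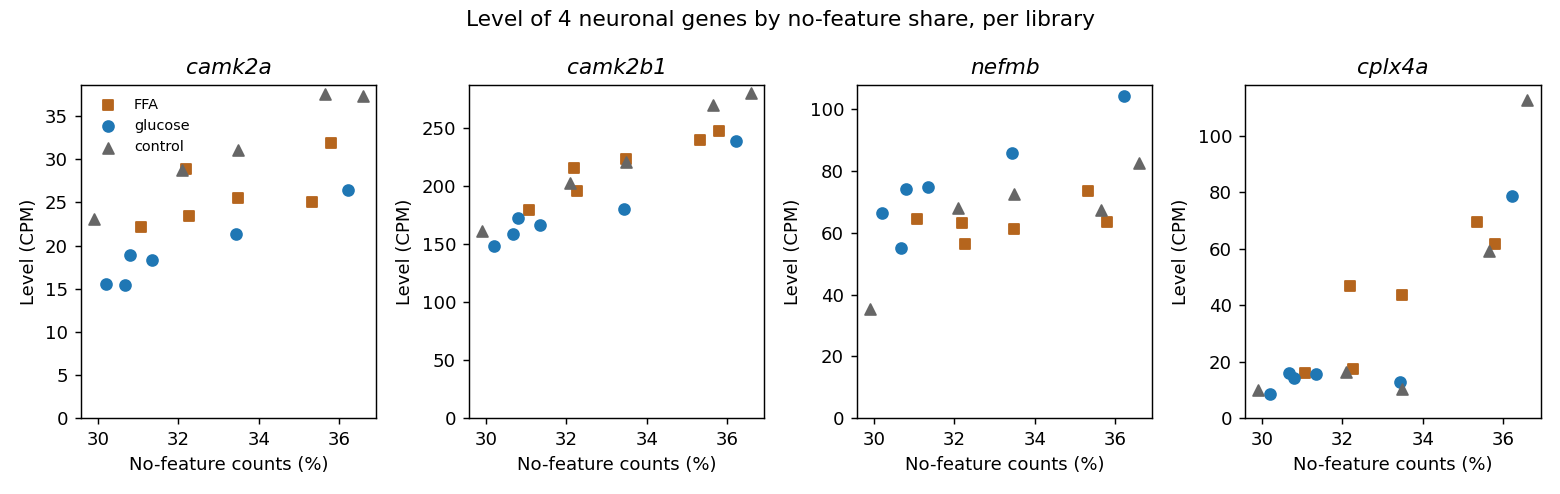
Each panel plots the level of 1 gene in CPM against the no-feature share in percent, with 1 point per library (squares FFA, circles glucose, triangles control). Glucose pools lie below control pools of like share for camk2a (15.6 CPM at 30.2% against 23.1 CPM at 29.9%), and hold 8.57 to 15.9 CPM of cplx4a in all but replicate 4, which holds 78.7 CPM.

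In the second list of 110 neuronal genes, few were called without the covariate in glucose against control and FFA against glucose. Of all tested genes 10.9% and 17% were called there. In FFA against control 1 rose and 1 fell, near the share of all tested genes (1.82%). In glucose against control 1 rose and 1 fell, and the list's median was -0.32 on the log2 scale. The glycine receptor gene glra4a rose, at 17.8 ± 1.69 CPM in glucose and 12.8 ± 0.726 CPM in control (0.47 ± 0.0734, adjusted p = 0.000504), with all 6 glucose pools above all 5 control pools. It was also lower in FFA than in glucose (-0.50 ± 0.0698, adjusted p = 0.000156), and both calls stood without any 1 pool. The dopamine and serotonin enzyme gene ddc fell, at 21.3 ± 2.56 CPM in glucose and 30.7 ± 7.27 CPM in control (-0.53 ± 0.128, adjusted p = 0.0141), a call that ended with a replicate block (adjusted p = 0.0703) and with the 2 groups fitted alone (adjusted p = 0.0541). It also ended without control replicates 1 and 2 and glucose replicate 4 (adjusted p = 0.0559) and with groups from the treatment tag (adjusted p = 0.212).

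In FFA against control, uchl1, a ubiquitin hydrolase gene abundant in neurons, rose, at 61.5 ± 11.4 CPM in FFA and 37.6 ± 4.2 CPM in control (0.71 ± 0.113, adjusted p = 0.00254). All 6 FFA pools lay above all 5 control pools, and the call stood without any 1 pool, while it ended with groups from the treatment tag (0.19, adjusted p = 0.569). Under the tags the FFA group held FFA replicate 1 and glucose replicates 2 to 6, so that fit compared other pools and cannot check this call. Those groups called 0.00739% of all tested genes in this comparison. In the same comparison ddc fell, at 21.2 ± 1.04 CPM in FFA and 30.7 ± 7.27 CPM in control (-0.53 ± 0.128, adjusted p = 0.0408), and that call ended without any 1 of 9 pools, namely control replicates 1, 2 and 6 and each FFA replicate (adjusted p up to 0.141). It also ended with library size alone (adjusted p = 0.0665), limma-voom (0.0703), the 2 groups fitted alone (0.108) and a replicate block (0.222). The same held without control replicates 1 and 2 and glucose replicate 4 (adjusted p = 0.112) and with groups from the treatment tag (0.127). In FFA against glucose, uchl1 rose by 0.66 ± 0.107 (adjusted p = 0.000533) and the noradrenaline enzyme gene dbh by 0.61 ± 0.171 (adjusted p = 0.0205), with dbh at 5.92 ± 0.809 CPM in FFA and 3.84 ± 1.14 CPM in glucose. With the covariate the list had 2 genes higher and 3 lower in glucose against control (18.6% of all tested genes called), 1 higher and 1 lower in FFA against control (4.79%), and 6 higher and 7 lower in FFA against glucose (29.4%). In those fits glra4a was 0.47 in glucose against control, and uchl1 was 0.71 in FFA against control. With the covariate ddc was -0.41 in glucose against control (edgeR adjusted p = 0.00546) and -0.50 in FFA against control (adjusted p = 0.00244). Both of these ddc calls stood without any 1 of 11 pools (adjusted p up to 0.0218 and 0.00916). The call in FFA against control ended with groups from the treatment tag (adjusted p = 0.128).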

How the data were processed

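Poly(A) RNA from 17 pools was sequenced as 75 bp stranded paired-end reads, per the labels' protocols. The authors deposited whole-number read counts per gene, with no normalization. STAR, DESeq2 and danRer7 are named in the submitters' processing notes, with no versions. No source used here names the counter, the annotation or the treatment of multi-mapping reads. The no-feature (29.9% to 36.59%) and ambiguous lines stayed out of library sizes and tests.

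Genes passing filterByExpr (minimum count 10) were scaled by TMM and tested with edgeR 4.0.16 (R 4.3.3) in 1 fit of the 3 title groups, without and with the no-feature share as a covariate, with Benjamini-Hochberg adjustment over all genes of a comparison and a threshold of 0.05. The SE is the log2 value divided by the square root of F, and 95% intervals use it with the residual degrees of freedom (14, or 13 with the covariate). Levels in CPM were computed here with the TMM factors, and the bound for gap43 without them. No library was counted as a duplicate (40 replicate pairs, chi-square per degree of freedom 4.33 to 68.8). Whether replicate numbers pair the pools is not known (same-numbered pools had r -0.792 to 0.576, with 5 of 16 pairs over 0.1). The scripts were tested on simulated data.

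Of the 44 tested members, 42 are shown by name, and values of the others, which enter the fits and counts, are not reported here. The members and lists were chosen with earlier results of these data known. Named with values were members called in a group comparison, the steepest and shallowest member of each role, duplicated pairs, and the 3 called genes of another list with the smallest p per comparison. Other genes named with values, such as vamp2, nlgn1, slc6a1b, slc17a7a and those that fell with the share, were chosen after their values were seen. Alternatives were other scalings and filters, DESeq2 1.42.0, limma-voom (limma 3.58.1), 2 groups alone, a replicate block, each library left out, 3 libraries removed, groups from the treatment tag, the log2 ratio of no-feature to gene counts, and log2 depth as a covariate.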

Additional observations from a re-analysis of the deposited data

Results flagged for a closer look

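In 7 of 126 combinations of a neuronal gene and a group, glucose replicate 4, the glucose pool with the highest no-feature share (36.2%), was flagged as standing above the other 5 glucose pools. Chance would flag about 1 in 20 groups if the genes were separate observations. These genes share their libraries and moved together, so the count cannot be set against that rate. The share of all tested genes flagged in this pool was not computed. The levels in glucose replicate 4 were 78.7 CPM for cplx4a (next highest 15.9 CPM) and 26.4 CPM for slc17a7a (10.2 CPM). They were 49.7 CPM for syn2b (24.2 CPM), 131 CPM for stmn2b (74.3 CPM) and 54.2 CPM for rab3aa (34.8 CPM). They were 232 CPM for sypb (127 CPM) and 239 CPM for camk2b1 (180.4 CPM). No FFA or control pool was set apart in this way for any of these 42 genes.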

How the results depend on the processing

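The count of neuronal genes rising with the no-feature share stayed between 42 and 44 under every alternative (43 to 44 with each library left out, 43 with a replicate block, 42 without 3 libraries), where 44 was the reported count. Of all genes 26.8% to 62.3% were called in these fits, higher or lower. Calls between groups were fewer and less stable. In glucose against control the count was 1, with 1 to 3 when each library was left out (7.9% to 14.9% of all genes). It was 2 without control replicate 4 and 3 without glucose replicate 4. In FFA against control it was 0, also with each library left out (1.16% to 1.87% of all genes). In FFA against glucose it was 1, with 0 to 3 when each library was left out (12.2% to 20.4% of all genes). It was 0 with RLE size factors (17.1%) and with library size alone (17.6%). With the covariate, the counts were 3 (2 to 3 with each library left out), 0 (0 to 1, and 1 with DESeq2) and 8 (3 to 9). With each library left out, 10.8% to 18%, 3.45% to 5.39% and 22.9% to 29.4% of all genes were then called. DESeq2 called 6.29% in FFA against control. Control replicates 1 and 2 and glucose replicate 4, the 3 pools with the highest summed neuronal level, were chosen from earlier results of these data. Leaving them out selects on the genes' own levels, so that fit supports no call and counts against none. Without them 3 genes were called in FFA against control (4.34% of all genes), 10 in FFA against glucose (27.5%), and with the covariate 1 (3.21%) and 5 (18.8%), all higher in FFA, and the 6 lower calls of the covariate fit ended.

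Replicate numbers are shared by the groups, and the labels do not say that they pair the pools. Of 16 same-numbered pairs 5 correlated at over 0.1 (range -0.792 to 0.576). Pools of unlike number were not compared, so these r values cannot decide whether the numbers pair the pools. With a replicate block the count was 0 for FFA against glucose (12% of all genes), and with the covariate 6 for glucose against control (17.8%), 1 for FFA against control (4.5%), and 12 for FFA against glucose (2 higher and 10 lower, 28.8%).

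With groups from the treatment tag, which nearly exchanges FFA and glucose, the count in glucose against control was 0, or 1 with the covariate. That in FFA against glucose was 0 in both fits. In FFA against control, where the FFA group then held glucose replicates 2 to 6, it was also 0 in both fits (0.00739% of all genes, or 0.672% with the covariate). The median log2 fold change of the 44 genes there was -0.33, or 0.03 with the covariate. Calls fell over all genes as well, to 0.783%, or 1.98% with the covariate, in glucose against control. In FFA against glucose they fell to 3.77%, or 7.28% with the covariate. Directions then turned: in glucose against control glra4a was -0.18, and with the covariate glra4a was -0.18, nefmb -0.053 and camk2b1 0.025. In FFA against glucose camk2a was -0.44, glra4a 0.44, uchl1 -0.41 and dbh -0.46. With the covariate syn2b was 0.39, stmn2b 0.29, nefma 0.22, nefmb 0.28, tubb5 0.13, atp1a3b 0.19, dpysl2b 0.27, glra4a 0.43, camk2a -0.29, camk2b1 -0.13 and uchl1 -0.38. Each had the opposite sign with groups from the titles (dpysl2b was -0.33 there, with the covariate). The tags nearly exchange the 2 groups, so turned signs in FFA against glucose largely follow from the relabelling. They do not measure how stable the calls are.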
